A study of Mus musculus with 6 samples.

Results

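Heat shock proteins and chaperonins were taken by gene name as the Ensembl genes whose symbol is Hspd1, Hspe1, Hsph1 or Tcp1 or begins with Hsp90, Hspa, Hspb, Dnaja, Dnajb, Dnajc, Cct, Bag or Pfdn and a number, with names containing -ps left out. The rule used no measured value and found 93 of the 60193 listed genes, 53700 of which have Ensembl identifiers. The 93 genes comprised 14 of the HSP70 and HSP110 family, 3 of the HSP90 family, the 2 mitochondrial chaperonins, 10 of the cytosolic chaperonin TRiC, 5 prefoldin subunits, 45 J proteins, 7 small heat shock proteins, 6 BAG proteins and Hspb11, which carries a heat shock name and is a part of the intraflagellar transport machinery. All 93 were protein-coding in the GENCODE M39 annotation of GRCm39.

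Molecular chaperones hold newly made or unfolded proteins and help them to fold. J proteins deliver clients to HSP70 and start its ATP cycle, BAG proteins release the nucleotide, HSP90 finishes the folding of kinases and receptors, and prefoldin passes actin and tubulin to the closed ring of TRiC. An oocyte that resumes meiosis is nearly silent in transcription, so its mRNAs are largely those stored during growth, and changes in their levels during maturation come mostly from decay and from changes of the poly(A) tail.

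The samples were metaphase II (MII) oocytes of female ICR mice aged 42 to 45 weeks, an outbred strain near the end of its reproductive life at this age, and every mouse had received pregnant mare's serum gonadotropin (PMSG). For the 3 IVM samples, germinal vesicle oocytes were stripped of cumulus cells by pipetting and matured in M16 medium for 12 h. For the 3 IVO samples, the mice also received human chorionic gonadotropin (hCG), and ovulated oocytes were taken from the oviduct 14 h later and freed of cumulus cells with hyaluronidase. Each sample pooled 20 oocytes from 3 mice, so p-values measure the spread between pools, and hormone, culture, handling and age of the oocyte at collection cannot be told apart. A lower level in such a pool can mean fewer oocytes that hold the RNA, less RNA in each or a changed poly(A) tail. These cannot be told apart either.

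Levels are the deposited FPKM (fragments per kilobase of transcript, relative to the fragments sequenced). The 18818 genes whose mean reached 1 FPKM were tested with limma on the scale of log2(FPKM + 1), where log2FC is IVO against IVM and the change of low genes is understated. Below, fell and rose mean lower and higher in IVO than in IVM. They mean no course in time, since all samples were MII oocytes. A gene with a Benjamini-Hochberg adjusted p under 0.05 over all tested genes passed the test, and was a DEG if |log2FC| was also at least 1. With 3 samples in each group, the smallest p of an exact permutation test is 0.1. Low FPKM values fall on steps of single fragments, from which the depth came to 16500000 to 19400000 fragments in IVM and 18000000 to 18200000 fragments in IVO samples, so 3 fragments on 1000 bases correspond to 0.195 to 0.232 FPKM, a floor that covers counting error only. The inferred mean fragment length was 208 to 218 bases in IVM and 248 to 264 bases in IVO samples. These ranges do not overlap, so this library difference cannot be told apart from the group, and its part in the results was not tested. Over all tested genes the median log2FC was -0.30 with FPKM as deposited and -0.04 after median-ratio scaling of the samples, so directions are given below under both. The defining oocyte markers Zp3 and Gdf9 were at 58.46 FPKM or more in every sample, the 12 oocyte markers summed to 12370 to 14790 FPKM in IVM and 9184 to 10190 FPKM in IVO samples, and 5 of them were DEGs lower in IVO. Of the 16 cumulus and granulosa markers, 3 were tested and none of these passed with limma (0 also at an unadjusted p under 0.05), and 2 were at 0 in every sample. Of their defining genes, Foxl2 reached at most 0.02 FPKM, Has2 was at 0.04 to 0.14 FPKM in IVM and 0.17 to 0.37 FPKM in IVO, and Ptx3 at 0 to 0.03 FPKM in IVM and 0.07 to 0.17 FPKM in IVO samples. These last, and Tnfaip6 (0 to 0.14 FPKM in IVM and 0.34 to 0.49 FPKM in IVO), had all IVO values above the IVM values, and their part in the results was not tested. The 3 tested ones were present in every sample, Amhr2 at 3.14 to 27.89, Fshr at 6.14 to 16.3 and Cyp19a1 at 16.25 to 23.13 FPKM. The 16 markers summed to 31.15 to 61.96 FPKM in IVM and 34.56 to 57.72 FPKM in IVO samples.

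Most heat shock protein and chaperonin mRNAs of the tested set did not pass the test between IVO and IVM oocytes. Of the 93 genes, 66 passed the filter on low values, 13 with a mean of at least 100 FPKM, 34 with 10 to 100 and 19 with 1 to 10 FPKM. Among the 66, the DEGs lower in IVO were Dnajc4, Dnajc22, Pfdn5 and Cct3, and the DEG higher in IVO was Hspa9. These 5 genes are 7.58% of the 66, where 18.5% of all tested genes were DEGs, 17.9% lower and 0.606% higher in IVO. Without the threshold on the fold, 7 fell and 2 rose, against 21.5% and 1.87% of all tested genes. All IVO values were below all IVM values for 19 of the 66 and above them for 7, against 32.6% and 9.62% of all tested genes. The absolute log2FC reached 1 for 6 of the 66 (9.09%) and for 25.9% of all tested genes.

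Scaling changed the split of the calls between the directions. With median-ratio scaling, 3 of the 66 passed as lower and 7 as higher in IVO, against 13.2% and 7.14% of all tested genes, and 2 were DEGs in each direction. The median log2FC of the 66 was -0.21 as deposited and 0.08 after this scaling, above that of all 18818 tested genes both times. This order depended on the background and the setting. Over the 13154 tested genes with Ensembl identifiers, which all members have, the median was -0.18 as deposited, above that of the members. In that fit 2056 of the 13154 were DEGs, with 5 members lower and 1 higher in IVO. With the length trend removed, the median was 0.05 over all tested genes and -0.00062 over members. Dnajc4, Dnajc22 and Pfdn5 passed as lower and Hspa9 and Dnajb4 as higher both as deposited and with median-ratio scaling. Hsp90aa1, Cct8, Dnaja2, Dnajc8 and Hspa14 passed as higher with median-ratio scaling and not as deposited. The cumulative plot of the log2FC shows the members' narrower spread, and the plot of single members shows each gene under both.

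**Figure D1:**
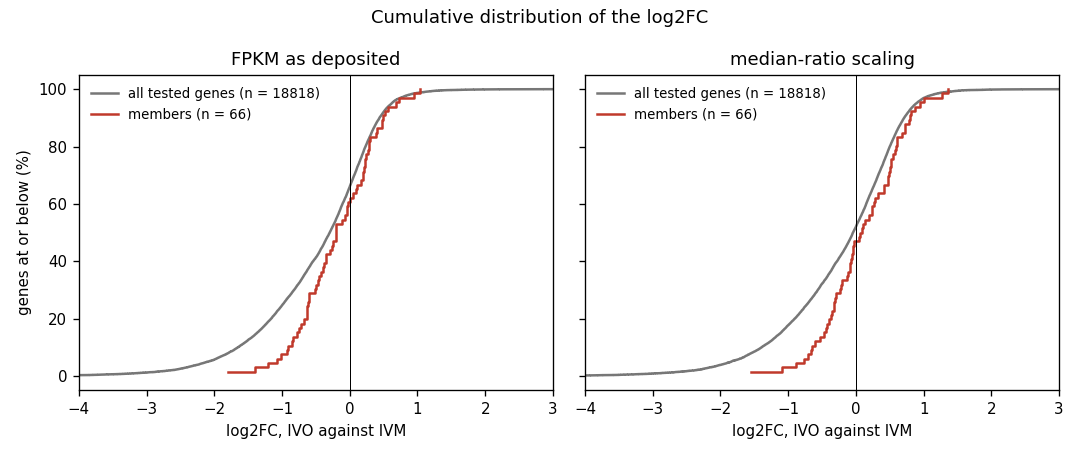
Cumulative share (%) of genes at or below each log2FC of IVO against IVM, with FPKM as deposited (left) and after median-ratio scaling (right), in grey for the 18818 tested genes and in red for the 66 tested members. Members reach from -1.80 to 1.04 as deposited, and their line lies to the right of the grey one over the negative values.

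**Figure D2:**
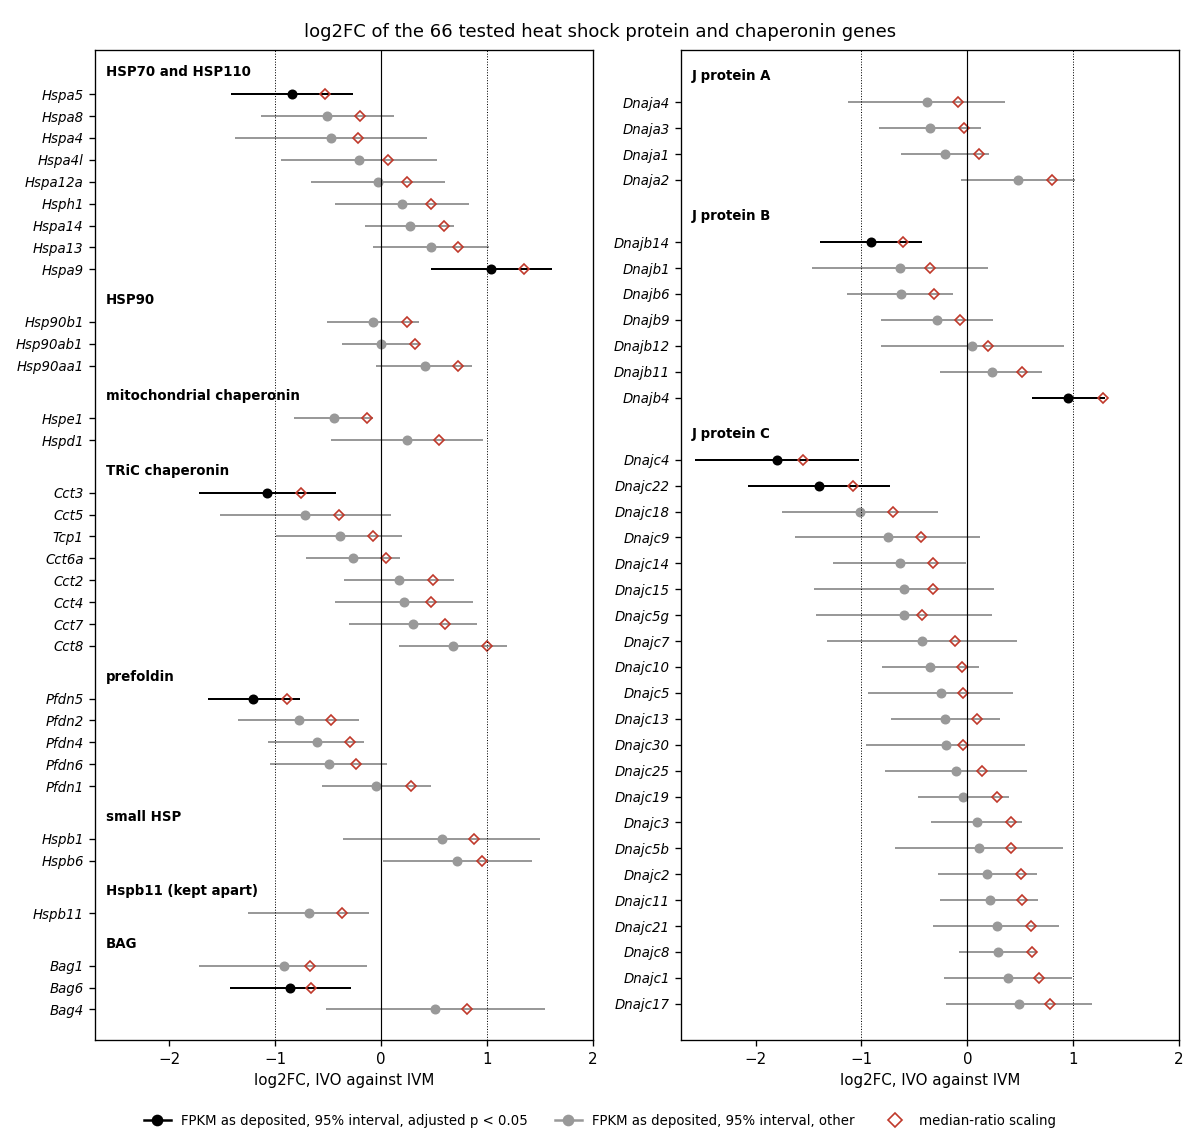
log2FC of IVO against IVM (x axis) for the 66 tested members by class, with FPKM as deposited (points with 95% intervals, black where the adjusted p is under 0.05) and after median-ratio scaling (red diamonds); dotted lines mark -1 and 1. The 9 black points are 7 genes to the left of 0 and 2 to the right.

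HSP90 was the most abundant class, and its abundance came from Hsp90aa1, the stress-inducible cytosolic HSP90. Hsp90aa1 was at 4365.73, 6230.28 and 6860.52 FPKM in the IVM samples and at 6900.13, 7563.43 and 8355.28 FPKM in the IVO samples. All 3 IVO samples lay above the IVM samples, although the lowest IVO value was close to the highest IVM value. The log2FC of 0.41 (SE 0.19, adjusted p = 0.167) did not pass as deposited, and with median-ratio scaling it was 0.73 (adjusted p = 0.0484). The gene ranked between 12 and 48 among the Ensembl genes of a sample by FPKM and held 38.1%, 43.8% and 49.5% of the members' summed FPKM in IVM and 52.5%, 54.2% and 57.5% in IVO oocytes.

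Hsp90ab1, the constitutive cytosolic form, was far less abundant and did not separate the groups. Its FPKM was 128.87, 132.42 and 137.61 in IVM and 125.20, 134.07 and 140.64 in IVO samples. The log2FC was 0.00 with a 95% interval from -0.36 to 0.36 (adjusted p = 0.993), and 0.32 after scaling (adjusted p = 0.187). Within each sample, Hsp90aa1 stood 33.9, 47.0 and 49.9 times above Hsp90ab1 in IVM and 55.1, 56.4 and 59.4 times in IVO oocytes, a ratio that a single factor for each sample does not change. Quantile normalization does change it, and the log2FC was then 0.42 for Hsp90aa1 and 0.51 for Hsp90ab1. Hsp90b1, the HSP90 of the endoplasmic reticulum, was at 57.51 to 75.05 FPKM in IVM and 57.61 to 64.24 FPKM in IVO samples, and its log2FC turned from -0.08 as deposited to 0.24 with scaling (adjusted p = 0.801 and 0.351).

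In the HSP70 family, the mitochondrial Hspa9 passed as higher in IVO oocytes, and Hspa5 of the endoplasmic reticulum passed as lower as deposited. Hspa9 (mortalin), which pulls precursors into the mitochondrial matrix and folds them there, was at 23.54, 23.68 and 38.90 FPKM in the IVM and at 61.47, 58.69 and 55.49 FPKM in the IVO samples. The groups did not overlap, the mean was 2.04-fold higher in IVO, and the log2FC was 1.04 (SE 0.24, adjusted p = 0.021), or 1.35 with scaling (adjusted p = 0.0109). The adjusted p was 0.0609 to 0.065 without IVM sample 1, IVM sample 2, IVO sample 1 or IVO sample 2, each left out in turn, and 0.0108 without IVM sample 3, the highest of its group.

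Hspa5 (BiP), an HSP70 of the endoplasmic reticulum, was at 38.89, 32.44 and 42.80 FPKM in IVM and at 23.65, 24.15 and 15.28 FPKM in IVO samples. All IVO samples lay below the IVM samples, and the log2FC was -0.84 (SE 0.24, adjusted p = 0.0429). The call was not kept with median-ratio scaling (-0.53, adjusted p = 0.125) or without any 1 of the 6 samples (adjusted p 0.0601 to 0.108). Within a sample, Hspa5 stood 1.65, 1.37 and 1.10 times as high as Hspa9 in IVM and 0.385, 0.411 and 0.275 times in IVO oocytes, so the more abundant of the pair was Hspa5 in every IVM and Hspa9 in every IVO sample.

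Hspa8 (HSC70), the constitutive cytosolic HSP70, was at 23.47, 21.38 and 33.41 FPKM in IVM and at 21.75, 18.79 and 13.50 FPKM in IVO samples. The groups overlapped, and the log2FC of -0.51 (SE 0.26, adjusted p = 0.206) did not pass. Hspa14, which works with the J protein Dnajc2 on the ribosome, had the highest mean of the family and was at 45.08, 36.91 and 43.76 FPKM in IVM and 52.26, 51.67 and 47.89 FPKM in IVO samples. All IVO values lay above the IVM values, and the log2FC was 0.27 (SE 0.18, adjusted p = 0.312) as deposited and 0.59 (adjusted p = 0.0478) with scaling. Hsph1, the HSP110 that recharges HSP70, was at 5.37, 5.43 and 8.19 FPKM in IVM and 9.86, 6.09 and 6.34 FPKM in IVO samples, with overlapping groups and a log2FC of 0.20 (SE 0.27, adjusted p = 0.643). The other tested members of the family, Hspa4, Hspa4l, Hspa12a and Hspa13, had log2FC between -0.47 and 0.47, and none passed under either scaling. Hspa13, also listed for the endoplasmic reticulum, ran opposite to Hspa5. It was at 4.19, 2.64 and 3.92 FPKM in IVM and 5.58, 5.54 and 4.74 FPKM in IVO samples. All its IVO values lay above the IVM values (log2FC 0.47, adjusted p = 0.187; 0.73 with scaling, adjusted p = 0.052).

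The heat-inducible HSP70 genes Hspa1a and Hspa1b, which most cells induce first after heat, were at or near 0 in both groups. Hspa1a was at 0.08, 0 and 0.04 FPKM in IVM and at 0, 0.02 and 0.07 FPKM in IVO samples, where 3 fragments on a gene of its length of 2967 bases correspond to 0.056 to 0.066 FPKM. Hspa1b was at 0.12, 0.36 and 0.18 FPKM in IVM and 0, 0.07 and 0.43 FPKM in IVO samples. Both were below the filter, with overlapping groups, and no change was detectable at this depth. The genes are near-identical neighbours on chromosome 17, so fragments assigned to one may come from the other. The likeness extends upstream of the start site, and the 250 bases before the canonical start are shown for both (GRCm39, minus strand, written 5′ to 3′, Hspa1a at chr17:35191133-35191382 and Hspa1b at chr17:35178215-35178464), with capitals marking an inverted pair of the GAA and TTC units that heat shock factor binds.
Hspa1a: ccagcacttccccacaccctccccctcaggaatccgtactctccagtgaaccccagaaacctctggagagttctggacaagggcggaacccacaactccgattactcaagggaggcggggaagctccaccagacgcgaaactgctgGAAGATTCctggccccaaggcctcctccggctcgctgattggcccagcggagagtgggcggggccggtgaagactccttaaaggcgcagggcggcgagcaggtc
Hspa1b: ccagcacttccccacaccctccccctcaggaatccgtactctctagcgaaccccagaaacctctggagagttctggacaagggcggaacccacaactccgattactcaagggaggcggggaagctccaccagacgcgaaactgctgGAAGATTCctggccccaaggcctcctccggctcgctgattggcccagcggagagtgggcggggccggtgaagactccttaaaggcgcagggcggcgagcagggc
The windows differ at 3 of the 250 bases, and the marked pair is the same in both.

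A heat shock element proper repeats these units. A search for 3 alternating GAA and TTC units, separated by 2 bases of any kind, on both strands, found 76 of 21757 windows of 250 bases before protein-coding genes (0.35%) and 2 of the 93 member windows (2.15%). Both were those of Hspd1 and Hspe1, which lie head to head on chromosome 1 and whose windows overlap, so the match is one and the same. The stretch of 30 bases that holds it is shown because it lies between the starts of the mitochondrial chaperonin pair, at chr1:55127212-55127241 (GRCm39, plus strand, 79 to 50 bases before the start of Hspe1), with the run of alternating units in capitals, and it falls within the first exon of some annotated Hspd1 transcripts.
Hspe1: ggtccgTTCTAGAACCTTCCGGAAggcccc
An inverted pair of units, as in the Hspa1a window, was found in 2673 of all windows (12.29%) and in 15 member windows (16.13%). A match describes the letters and not a bound site, and its absence from a window says nothing of the factor.

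Hspd1 and Hspe1 encode the barrel (HSP60) and the lid (HSP10) of the mitochondrial chaperonin. Hspe1 was at 190.96, 204.05 and 180.97 FPKM in IVM and at 144.36, 130.27 and 146.30 FPKM in IVO samples, and Hspd1 at 11.77, 19.85 and 25.45 FPKM in IVM and 25.92, 20.08 and 19.49 FPKM in IVO samples. For the lid all IVO values were below the IVM values, whereas for the barrel the groups overlapped. The log2FC of Hspe1 was -0.45 (SE 0.16, adjusted p = 0.0775), or -0.13 with scaling (adjusted p = 0.596), and that of Hspd1 was 0.24 (SE 0.30, adjusted p = 0.608). Per length, the lid stood 16.2, 10.3 and 7.11 times above the barrel in IVM and 5.57, 6.49 and 7.51 times in IVO oocytes, with overlapping groups. Hspe1 is a short transcript of 774 bases, and with the trend of each sample with gene length removed its log2FC was -0.03.

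Over the 9 listed mitochondrial chaperones, Hspa9 alone passed, and 1 of the 9 was below the filter. Of all tested genes, 21.5% passed as lower and 1.87% as higher in IVO. The J protein Dnaja3, an abundant partner of Hspa9 in the matrix, was at 1926.36, 1813.00 and 1266.54 FPKM in IVM and at 1271.83, 1138.73 and 1474.04 FPKM in IVO samples. The groups overlapped, and the log2FC was -0.35 (SE 0.20, adjusted p = 0.256). Exons of Dnaja3 overlap those of Vasn on the same strand, which was listed at 0 in all 6 samples, and of Coro7 and Nmral1 on the other strand. The libraries carry no strand, so reads of overlapping genes cannot be told apart; this touches 66 of the 93 members, 11 of them with a gene on the same strand.

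The 8 ring subunits of TRiC, the chaperonin that folds actin and tubulin, did not move together. In the assembled ring the subunits are present in equal number, but their mRNAs differed 21.3 to 32.7 times in IVM and 29.6 to 54.6 times in IVO samples, with Cct8 the highest and Cct4 the lowest in every sample. As deposited, 4 subunits had a negative and 4 a positive log2FC, and with scaling 3 had a negative and 5 a positive one.

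Cct3 was lower in IVO, at 56.50, 31.65 and 36.84 FPKM in the IVM samples and 21.50, 20.18 and 14.94 FPKM in the IVO samples. The groups did not overlap, and the mean was 2.21-fold higher in IVM (log2FC -1.08, SE 0.27, adjusted p = 0.0291). The call was not kept with scaling (-0.76, adjusted p = 0.0774), nor when any sample other than IVM sample 2 was left out (adjusted p 0.0524 to 0.0784). Exons of Cct3 overlap those of Tsacc on the other strand, which was at 9.81 to 10.95 FPKM in IVM and 0.64 to 1.32 FPKM in IVO samples, and the part of this overlap in the Cct3 value was not tested.

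Cct8 lay on the other side, at 81.98, 101.37 and 105.94 FPKM in IVM and at 162.08, 183.30 and 123.31 FPKM in IVO samples. Every IVO sample was above every IVM sample, and the log2FC of 0.68 (SE 0.21, adjusted p = 0.0573) did not pass as deposited. It was 1.0 with median-ratio scaling (adjusted p = 0.0216), and 0.88 with the length trend removed (adjusted p = 0.0322). Its exons overlap those of Usp16 on the other strand, which was at 106.04 to 166.79 FPKM in IVM and 149.43 to 185.74 FPKM in IVO samples.

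Cct5 was at 45.29, 43.55 and 74.96 FPKM in IVM and 36.11, 43.48 and 20.45 FPKM in IVO samples. Its groups did not overlap, although the lowest IVM value was almost equal to the highest IVO value. The log2FC was -0.72 (SE 0.34, adjusted p = 0.176), or -0.40 with scaling (adjusted p = 0.39). Tcp1 was at 27.99, 21.73 and 31.36 FPKM in IVM and at 17.68, 26.74 and 17.20 FPKM in IVO samples (log2FC -0.39, adjusted p = 0.302). Cct6a was at 36.83, 39.97 and 37.65 FPKM in IVM and 29.29, 36.86 and 29.05 FPKM in IVO samples, and its log2FC turned from -0.27 as deposited to 0.05 with scaling. Both had overlapping groups. Cct2 was at 63.64, 90.15 and 91.18 FPKM in IVM and 90.63, 105.54 and 77.98 FPKM in IVO samples (log2FC 0.17, adjusted p = 0.623). Cct4 was at 2.63, 3.10 and 4.97 FPKM in IVM and 5.22, 3.36 and 4.16 FPKM in IVO samples (log2FC 0.22, adjusted p = 0.612). Cct7 was at 13.09, 10.34 and 14.65 FPKM in IVM and 21.29, 13.40 and 13.65 FPKM in IVO samples (log2FC 0.30, adjusted p = 0.431). In these 3 the groups overlapped too. Of the paralogs outside the usual ring, Cct6b reached at most 0.10 FPKM and Cct8l1 was listed at 0 in all 6 samples.

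**Figure D3:**
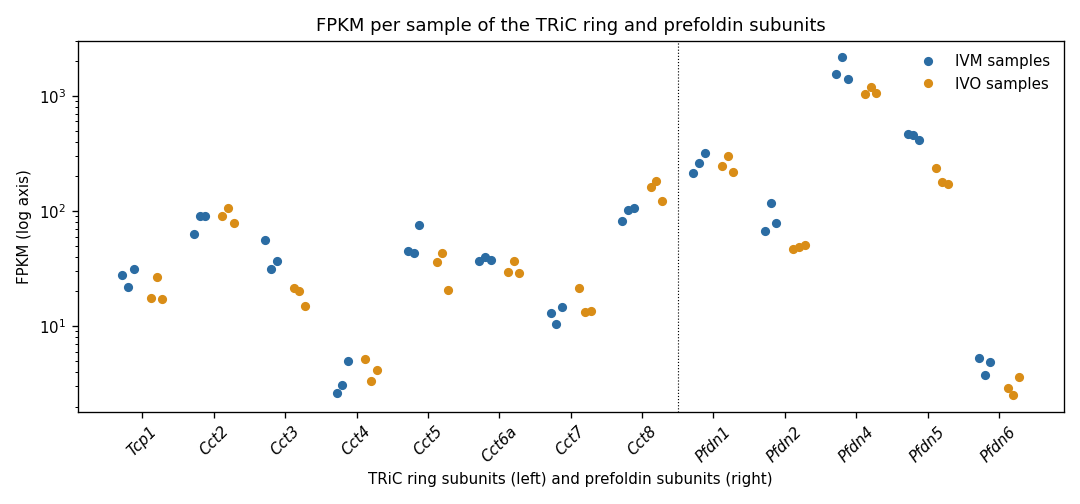
FPKM (log axis) of the 8 TRiC ring subunits and, right of the dotted line, the 5 prefoldin subunits, 1 point per sample, IVM in blue and IVO in orange. Cct8 lies above and Cct3 below in IVO, and Pfdn2, Pfdn4, Pfdn5 and Pfdn6 have all IVO points below the IVM points.

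All 5 prefoldin subunits had a negative log2FC as deposited, with a median of -0.61, and 4 of them had all IVO values below the IVM values; with scaling the median was -0.29 and Pfdn1 turned to 0.28. Of all 18818 tested genes, 12414 had a negative log2FC as deposited and 32.6% had all IVO values below the IVM values. Pfdn5 fell under both. It was at 465.25, 459.74 and 415.10 FPKM in IVM and at 235.28, 177.75 and 171.20 FPKM in IVO samples. The groups lay far apart, and the mean was 2.29-fold higher in IVM (log2FC -1.21, SE 0.18, adjusted p = 0.00501). The value was -0.89 with scaling (adjusted p = 0.0192) and -0.92 with the length trend removed (adjusted p = 0.0152), and the call held in all 6 fits that left out 1 sample. Exons of Pfdn5 overlap those of Myg1 on the same strand, which was at 1.39 to 5.29 FPKM in IVM and 0.91 to 1.29 FPKM in IVO samples.

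Pfdn4 was the most abundant subunit, at 1541.08, 2153.60 and 1402.06 FPKM in IVM and 1039.12, 1183.01 and 1052.74 FPKM in IVO samples. Its groups did not overlap, and the log2FC was -0.61 (SE 0.19, adjusted p = 0.0557), or -0.29 with scaling (adjusted p = 0.36). Pfdn2 and Pfdn6 had separate groups too, with log2FC of -0.78 (adjusted p = 0.0531) and -0.49 (adjusted p = 0.171). After scaling they were at -0.47 (adjusted p = 0.219) and -0.24 (adjusted p = 0.464). Pfdn1 was at 212.30 to 316.82 FPKM in IVM and 216.62 to 301.35 FPKM in IVO samples, with a log2FC of -0.05. The remaining subunit of the hexamer, Vbp1, lies outside the name rule and had a log2FC of -0.07 (adjusted p = 0.871).

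Short transcripts had lower log2FC as a whole in these data, and prefoldin transcripts are short, from 481 to 1735 bases. The median log2FC was -0.64 over the 8044 tested genes under 1200 bases and -0.13 over the 10774 longer ones, and among members it was -0.47 over 10 genes and -0.21 over 56. With the length trend removed, the median of the 5 subunits was -0.29, and Pfdn6, the shortest, turned to 0.24.

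J proteins, which choose the clients of HSP70, were the largest class, with 33 of 45 tested. As deposited, 3 of the 33 fell and 1 rose, where 21.5% and 1.87% of all tested genes did, and the range of log2FC was -1.80 to 0.95. Their median was -0.21, the same as that of all members. The 4 of type A, the closest relatives of bacterial DnaJ, did not pass. Besides Dnaja3, the most abundant was Dnaja1, at 254.93, 273.89 and 329.37 FPKM in IVM and 248.99, 271.43 and 219.40 FPKM in IVO samples, with overlapping groups and a log2FC that turned from -0.21 as deposited to 0.11 with scaling. Dnaja2 was at 40.95 to 61.45 FPKM in IVM and 56.41 to 73.01 FPKM in IVO samples, and its log2FC was 0.48 (adjusted p = 0.171), or 0.80 with scaling (adjusted p = 0.0385).

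Among type B, Dnajb4 rose in IVO oocytes. This cytosolic J protein was at 393.80, 467.54 and 423.34 FPKM in IVM and at 806.78, 878.72 and 803.07 FPKM in IVO samples. Replicates agreed closely within each group, and the mean was 1.94-fold higher in IVO (log2FC 0.95, SE 0.14, adjusted p = 0.0052), just under the fold required of a DEG. With scaling the log2FC was 1.28 (adjusted p = 0.00578), and the call held in all 6 fits that left out 1 sample. Its exons overlap those of Fubp1 on the other strand, which was at 29.52 to 40.23 FPKM in IVM and 13.50 to 22.16 FPKM in IVO samples, below Dnajb4 and in the other direction.

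Dnajb6, a suppressor of protein aggregation, was the other abundant member of type B and ran the other way, at 176.75, 244.36 and 256.23 FPKM in IVM and 158.78, 153.68 and 120.38 FPKM in IVO samples. The groups did not overlap, but the log2FC of -0.63 (SE 0.21, adjusted p = 0.071) did not pass, and it was -0.31 with scaling (adjusted p = 0.302). Dnajb4 stood 2.23, 1.91 and 1.65 times above Dnajb6 in IVM and 5.08, 5.72 and 6.67 times in IVO oocytes, which did not overlap.

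Dnajb14, a J protein of the membrane of the endoplasmic reticulum, was lower in IVO, at 23.87, 19.97 and 17.62 FPKM in IVM and 9.87, 9.76 and 11.51 FPKM in IVO samples. The groups were apart, and the log2FC was -0.91 (SE 0.20, adjusted p = 0.0185). This call was not kept with scaling (-0.61, adjusted p = 0.0775) or without IVM sample 1, IVO sample 1 or IVO sample 2 (adjusted p 0.0606 to 0.0663). Dnajb1, the classical heat-inducible HSP40, was at 11.70, 5.24 and 12.24 FPKM in IVM and 6.56, 6.49 and 3.94 FPKM in IVO samples, with overlapping groups and a log2FC of -0.64 (SE 0.35, adjusted p = 0.239).

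Type C, defined by little more than the J domain, held the DEGs with the most negative log2FC of all members. Dnajc4 was at 10.95, 4.76 and 7.48 FPKM in IVM and at 1.16, 2.04 and 1.11 FPKM in IVO samples. The lowest IVM sample was still above the highest IVO sample, and the mean was 5.38-fold higher in IVM (log2FC -1.80, SE 0.33, adjusted p = 0.00943; -1.55 with scaling, adjusted p = 0.0205). Dnajc22, the counterpart of the fly gene wurst, was at 78.59, 74.59 and 64.67 FPKM in IVM and at 18.37, 27.11 and 38.56 FPKM in IVO samples. Its groups did not overlap, and the mean was 2.59-fold higher in IVM (log2FC -1.40, SE 0.28, adjusted p = 0.0133; -1.08 with scaling, adjusted p = 0.0472). Both calls held in all 6 fits that left out 1 sample.

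Dnajc18 had a change of similar size, with 39.90 to 51.34 FPKM in IVM and 13.83 to 31.93 FPKM in IVO samples, but its adjusted p was 0.0535 (log2FC -1.01, SE 0.31). Scaling moved its log2FC to -0.7 (adjusted p = 0.141). Dnajc8, a component of the spliceosome and the most abundant of type C, was at 278.31, 343.77 and 331.02 FPKM in IVM and 398.77, 381.15 and 380.25 FPKM in IVO samples. All IVO values were above the IVM values, with a log2FC of 0.29 (adjusted p = 0.222), or 0.61 with scaling (adjusted p = 0.0411). The other 18 tested members of type C had log2FC from -0.75 (Dnajc9, a chaperone of histones) to 0.49 (Dnajc17), and none passed under either scaling. They include Dnajc2, at 40.81 to 49.08 FPKM in IVM and 44.60 to 60.54 FPKM in IVO samples, and Dnajc19 of the mitochondrial inner membrane, at 77.29 to 81.02 FPKM in IVM and 70.27 to 90.99 FPKM in IVO samples.

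**Figure D4:**
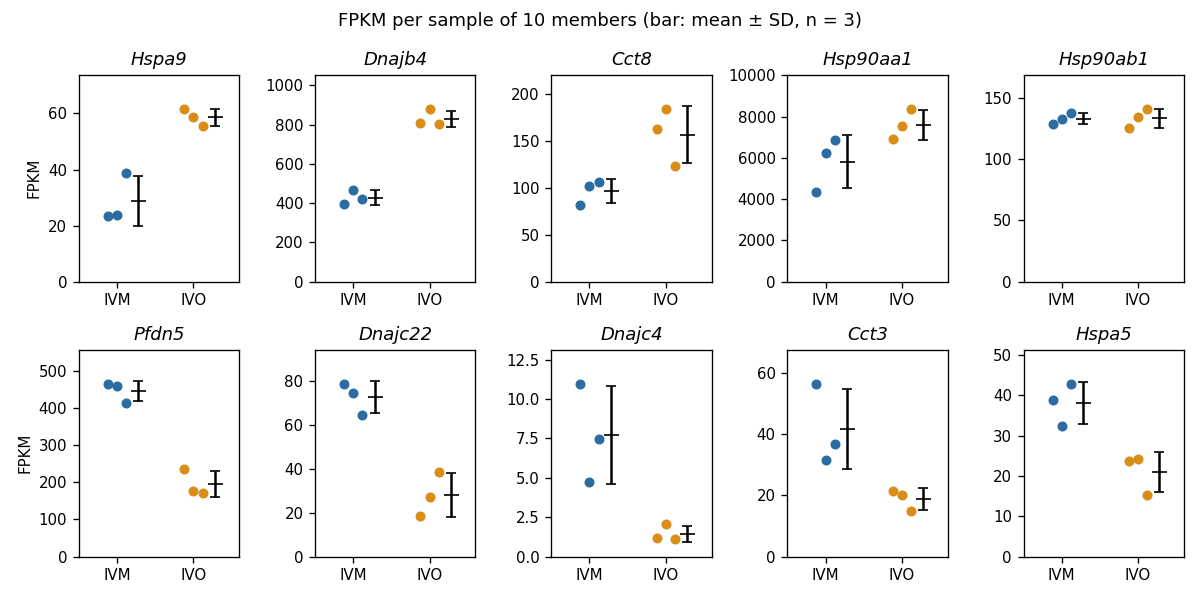
FPKM per sample of 10 members, 1 point per sample, with the mean ± SD of each group (n = 3) beside the points and all axes starting at 0. Hspa9, Dnajb4, Cct8 and Hsp90aa1 have all IVO points above IVM, Hsp90ab1 overlaps, and Pfdn5, Dnajc22, Dnajc4, Cct3 and Hspa5 have all IVO points below.

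Of the 7 small heat shock proteins, which bind unfolded proteins without ATP, Hspb1 and Hspb6 were tested and neither passed. Hspb1 was at 15.24, 15.68 and 40.68 FPKM in IVM and 26.80, 39.48 and 31.80 FPKM in IVO samples, and IVM sample 3 alone made the groups overlap. Its log2FC was 0.57 (SE 0.39, adjusted p = 0.339), and the value ranged from 0.34 to 1.02 when each sample was left out in turn. Hspb6 was at 1.42 to 2.56 FPKM in IVM and 2.46 to 4.76 FPKM in IVO samples (log2FC 0.72, SE 0.29, adjusted p = 0.121, or 0.95 with scaling, adjusted p = 0.054). Hspb11, named for a resemblance alone, was at 48.76, 62.39 and 46.65 FPKM in IVM and 26.46, 29.36 and 42.55 FPKM in IVO samples, with separate groups. Its log2FC of -0.68 (SE 0.24, adjusted p = 0.0822) became -0.37 with scaling (adjusted p = 0.337) and -0.08 with the length trend removed.

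Of the 6 BAG proteins, 3 were tested and Bag6, which guides membrane proteins and defective ones away from aggregation, fell. It was at 2.52, 3.19 and 2.19 FPKM in IVM and at 1.12, 0.80 and 1.08 FPKM in IVO samples, with separate groups. Its log2FC was -0.86 (SE 0.24, adjusted p = 0.0416), a call that was not kept with scaling (-0.66, adjusted p = 0.0923) or without any 1 of the 6 samples (adjusted p 0.0563 to 0.132). Bag1 was at 7.91, 3.06 and 6.78 FPKM in IVM and 2.80, 2.63 and 2.00 FPKM in IVO samples, with all IVO values below the IVM values. Its log2FC was -0.92 (SE 0.33, adjusted p = 0.0895), or -0.67 with scaling (adjusted p = 0.163), and did not pass. Bag4 had the highest mean, at 14.21, 4.73 and 17.45 FPKM in IVM and 14.13, 19.15 and 14.36 FPKM in IVO samples, with overlapping groups and a log2FC of 0.51 (SE 0.44, adjusted p = 0.443). Bag3, which is induced with HSP70 under stress, was at 0 in all IVM samples and at 0.10, 0 and 0 FPKM in the IVO samples.

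Grouped by role, the 12 genes put on a heat-inducible list held no member that passed as deposited. The list was Hspa1a, Hspa1b, Hspa8, Hsph1, Hsp90aa1, Hsp90ab1, Hspd1, Hspe1, Hspb1, Dnajb1, Dnaja1 and Bag3. It thus includes Hspa8 and Hsp90ab1, called constitutive above. Of the 12 genes, 9 were tested, 4 with a negative and 5 with a positive log2FC. Their median was 0.00, or 0.32 after scaling, when Hsp90aa1 passed as higher. Both medians were the values of Hsp90ab1. By limma, 0 of the 9 had an adjusted p under 0.05 as deposited, and 1, Hspe1, an unadjusted one. Of all tested genes, 21.5% passed as lower and 1.87% as higher in IVO as deposited. Hsf1, the factor that drives heat-inducible genes, was at 40.78, 32.53 and 58.50 FPKM in IVM and 47.92, 46.85 and 45.26 FPKM in IVO samples, and its log2FC was 0.13 (SE 0.24, adjusted p = 0.747). Of the 8 members listed for the endoplasmic reticulum, a list that does not hold Dnajb14, 1 passed, Hspa5, and the median log2FC was 0.01, or 0.32 after scaling. Of 11 members known from testis, 2 were tested, Dnajc5b and Dnajc5g, 6 were listed at 0 in all samples, and the rest reached at most 0.87 FPKM.

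Among chaperone partners and regulators outside the name rule, 9 fell and 1 rose as deposited of 34 tested (43 listed), where 21.5% and 1.87% of all tested genes did. With median-ratio scaling, 6 passed as lower and 5 as higher, against 13.2% and 7.14% of all tested genes. The DEGs as deposited numbered 8, all lower in IVO (23.5% of the 34, against 17.9% of all tested genes). Limma gave 0 higher ones as deposited, and 2 of the 34 were higher at an unadjusted p under 0.05. The HSP70 and HSP90 partners among them included Hspbp1 (log2FC -2.11, adjusted p = 0.0466), Sil1, the nucleotide exchange factor of Hspa5 (-1.74, 0.00242), the ubiquitin ligase Stub1 (-1.39, 0.0405) and Trap1, the HSP90 of mitochondria (-1.36, 0.00897). Sil1 was at 56.16, 62.12 and 45.24 FPKM in IVM and at 17.47, 15.84 and 13.48 FPKM in IVO samples. The partners of TRiC and prefoldin held Uxt (-1.59, 0.00709) and Pdcl3 (-1.48, 0.00315), the latter at 172.01, 196.16 and 159.49 FPKM in IVM and 56.30, 56.98 and 74.59 FPKM in IVO samples. For Sil1 and Pdcl3 the groups lay far apart. Nudc was a DEG as well (-1.13, 0.0111). Ppid, the cyclophilin that binds HSP90, was higher in IVO, at 18.25, 24.29 and 21.73 FPKM in IVM and 36.85, 35.79 and 34.73 FPKM in IVO samples (log2FC 0.72, SE 0.19, adjusted p = 0.0317). Fkbp5, an immunophilin of the same complexes, was lower (-0.88, adjusted p = 0.0261, or -0.57 with scaling, adjusted p = 0.109). With scaling, the calls of Hspbp1 and Stub1 were not kept (adjusted p = 0.0823 and 0.0755). Ppid was then at 1.03 (adjusted p = 0.0151), and Ahsa1, Hsf5, Nap1l1 and Canx passed as higher too.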

How the data were processed

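Pools were lysed, full-length cDNA was made with SMART-Seq v4, and Nextera XT libraries, which keep no strand, were sequenced from both ends. Per the study's methods, the authors filtered paired-end reads with SeqPrep and Sickle, and per the submitters' processing notes HISAT2 2.1.0, RSEM 1.3.3, DESeq2 1.24.0 and GRCm39 were used. The deposited FPKM were computed by the authors with RSEM for each gene in each sample; their group means were not used. DESeq2 was theirs, on counts not analysed here.

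Groups and replicate numbers came from the sample titles. The FPKM entered limma 3.58.1 (R 4.3.3, lmFit, eBayes with trend) as log2(FPKM + 1), filtered at a mean of 1 FPKM, with the group as the only term and all 6 samples. P-values are two-sided. Tested on simulated data for this comparison, the fit called 145 of 200 changed and 10 other genes of 18818. These are totals over all sizes of log2FC, and the share found at log2FC as small as those of the members was not tested. Depth and fragment length were inferred from genes of 500 to 2500 bases, where 79.4% to 81.0% of values of at most 5.5 fragments lay within 0.15 of a whole fragment. IVM samples summed to 1826738 to 2111776 FPKM and IVO samples to 1560813 to 1643682 FPKM.

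The 93 members and all lists were chosen with earlier results of these data known, so no list was tested as a set. Values in every sample are given for DEGs (at most 4 a class), the most abundant member of each class and textbook members; others were named after their values were seen. Alternative settings covered the pseudocount (0.1), the filter (none, or a mean of 5 FPKM), median-ratio, same-sum and quantile scaling, eBayes with no trend, a replicate block, removal of the length trend by lowess (span 0.3), Ensembl genes only, and leaving out each sample. The 5 pseudogene rows left out by name reached at most 0.17 FPKM. One partner gene is not reported here by name. Windows before start sites used the canonical transcripts of GENCODE M39. Tables and plots came from Python 3.11.15 (numpy 2.4.6, pandas 2.3.3, matplotlib 3.10.9).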

Additional observations from a re-analysis of the deposited data

How the results depend on the processing

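The counts of calls moved with the scaling of the samples. DEGs lower in IVO numbered 4, and 2 with median-ratio scaling, 2 with the same sum of FPKM, 1 with quantile normalization and 2 with the length trend removed. DEGs higher in IVO numbered 1, and 2, 3, 4 and 2 under these settings. Members that passed numbered 9, and 16 with quantile normalization (2 lower and 14 higher). Their median log2FC was -0.21, and 0.09 with the same sum and 0.29 with quantile normalization, where the median of all tested genes was -0.03 and 0.17. Leaving out each sample gave 3 to 5 lower and 0 to 2 higher DEGs and 4 to 9 members that passed, with the 0 by limma without IVM sample 1, IVO sample 1 or IVO sample 2, where 2 to 4 members were higher at an unadjusted p under 0.05, the 2 without IVM sample 3, and the 4 without IVO sample 1 or IVO sample 2. The causes were not tested.

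Replicate numbers did not pair the samples: deviations of same-numbered samples correlated at -0.062, -0.018 and -0.107, and no sample correlated best with its own number. With the replicate block, 5 members passed and no DEG was higher in IVO by limma (0, with 3 members higher at an unadjusted p under 0.05). With the replicate block and no length trend, 1 passed (Dnajb4), and 0 were DEGs lower in IVO by limma (7 at an unadjusted p under 0.05).

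Signs turned with median-ratio, same-sum and quantile scaling for Cct6a (0.05, 0.06, 0.20), Dnaja1 (0.11, 0.13, 0.27), Hsp90b1 (0.24, 0.26, 0.43) and Pfdn1 (0.28, 0.29, 0.45), with quantile normalization for Dnaja3 (0.04), Hspe1 (0.07) and Tcp1 (0.09), and with the length trend removed, with or without the block, for Hsp90b1 (0.13), Pfdn1 (0.23) and Pfdn6 (0.24). Leaving out a sample turned Bag4 (-0.0019 to 0.84), Hsp90ab1 (-0.04 to 0.05), Hsp90b1 (-0.15 to 0.04), Hspd1 (-0.05 to 0.47), Hsph1 (-0.0013 to 0.37) and Pfdn1 (-0.19 to 0.10), none of which passed. Over the 39 named genes tested, 542 of 658 values under an alternative kept direction and side of the threshold. Most of the 39 had not passed as deposited, so for them keeping the side meant not passing again. The 9 that had passed lost the call in 57 values. These were 14 for Hspa5, 13 for Bag6, 11 for Cct3, 9 for Dnajb14 and 6 for Hspa9. Dnajc22 lost it in 2, Dnajc4 and Pfdn5 in 1 each, and Dnajb4 in 0. Members below about 0.2 FPKM rest on few fragments.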

Other observations

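Of the 27 members below the filter, 10 were listed at 0 in all 6 samples, 17 were above 0 in at least 1 sample, and Dnajb2 and Dnajc28 reached 1 FPKM in at least 1. Hspa2, the HSP70 of spermatocytes, was at 0.76, 0.87 and 0.74 FPKM in IVM and 0.56, 0.66 and 0.63 FPKM in IVO samples, and Dnajb2, known from neurons, at 0.86, 1.08 and 1.34 FPKM in IVM and 0.61, 0.52 and 0.72 FPKM in IVO samples. Dnajc6 (auxilin), which strips clathrin from vesicles, was at 0.56, 0.24 and 0.09 FPKM in IVM and 0.01, 0.01 and 0 FPKM in IVO samples. For these 3 genes, named after their values were seen, all IVO samples lay below the IVM samples, and none was tested. The share of such genes among all genes below the filter was not computed, and the IVO values of Dnajc6 rest on few fragments.

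Clpx, the unfoldase of the mitochondrial protease, had the widest range among the partners, at 164.42, 1437.17 and 402.97 FPKM in the IVM samples and 608.06, 708.79 and 605.59 FPKM in the IVO samples, and its log2FC was 0.48 (SE 0.69, adjusted p = 0.657).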
